A study of Mus musculus with 24 samples.

Results

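The genes described here were high in slow cycling mouse embryonic fibroblasts (MEF) under reprogramming factors and low in fast cycling MEF, bulk MEF and induced pluripotent stem cells (iPS). They were chosen by their measured levels. A gene was kept if its mean in slow MEF reached 20 CPM (counts scaled to a common library total that leaves out Rn45s and Lars2) and was at least 4 times the mean plus 0.5 CPM of each of the other 3 groups. Of 23283 genes, 151 passed, 18 of these were left out by symbol because they belong to families such as interferon-induced genes, collagens and Igf binding proteins, and 133 remained. The levels in these 4 groups are therefore given as a description and carry no test.

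The study set slow and fast dividing cells beside each other in 24 libraries of cytosolic RNA. The extraction protocol describes 1000 cells sorted per well for every group, while the labels call bulk MEF unsorted, and the sources used here do not settle which holds for bulk MEF. Slow MEF and fast MEF (4 libraries each) had the Yamanaka factors Oct4, Sox2, Klf4 and Myc induced by doxycycline for 6 days in embryonic stem cell medium with LIF, and were separated after 48 hours by CFSE, a dye that is diluted at each division. Bulk MEF (4 libraries) were untreated, without factor induction, in DMEM with serum and are labelled slow cycling, and iPS (4 libraries) were factor independent, sorted for an Oct4:GFP reporter and labelled fast cycling. Granulocyte monocyte progenitors (GMP), blood progenitors kept with cytokines that included SCF, IL3 and Flt3L, were separated by CFSE after 24 hours into slow GMP (3 libraries) and fast GMP (5 libraries). Strain, age and the construct carrying the factors are not described in the sources used here. Slow MEF and fast MEF thus share factors, doxycycline, medium and dye, while slow MEF and bulk MEF differ in all of these, and the parts of dye gate, factors and medium in that difference cannot be told apart. Whether the replicates are biological is not stated in the labels, so a p-value given below reflects variation among libraries that could be technical.

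Fibroblasts build and organise the extracellular matrix, and they send and receive growth factor, Wnt and cytokine signals. When reprogramming factors are induced, fibroblasts lose much of this programme as they move towards an epithelial and then a pluripotent state, and only some of the cells complete that course. Cells in which the dye stays bright are those that divided least.

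Library totals ran between 2098846 and 18648132 counts, and the 8 GMP libraries were the shallowest. The summed level of the 133 genes was 19074 to 24803 CPM in the slow MEF libraries, 1434 to 1734 CPM in fast MEF, 2076 to 2647 CPM in bulk MEF and 753 to 1001 CPM in iPS. Of 20 fibroblast markers, 15 averaged 20 CPM or more in slow MEF, 13 in fast MEF and 11 in bulk MEF, and their summed level was 91264 to 143810 CPM in slow MEF, 9721 to 13156 CPM in fast MEF and 59054 to 78346 CPM in bulk MEF. Most of that sum came from Col1a1, Col1a2 and Sparc, while the marker Vim averaged 1321 CPM in slow MEF and 2976 CPM in bulk MEF. The 25 macrophage markers summed to 80.2, 224, 85.4 and 8.43 CPM in the slow MEF libraries, 25.6 to 52.3 CPM in fast MEF and 238 to 381 CPM in bulk MEF. The 11 mesothelial and epithelial markers summed to 75, 329.5, 261 and 733 CPM in slow MEF, 12755 to 18824 CPM in fast MEF and 23.3 to 52.8 CPM in bulk MEF. Most of that sum came in slow MEF and fast MEF from the keratin gene Krt14, with means of 275 and 13378 CPM. Of the mesothelial markers, Msln averaged 32.8 CPM in slow MEF, 428 CPM in fast MEF and 0.929 CPM in bulk MEF. Wt1, Upk1b, Upk3b and Lrrn4 averaged at most 0.433 CPM in slow MEF, 6.24 CPM in fast MEF and 0.184 CPM in bulk MEF. Whether the macrophage, mesothelial and epithelial markers came from such cells, and the part of such cells in the levels below, was not tested. In bulk samples fewer cells of a type and less RNA per cell cannot be told apart.

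The median gene of the 133 averaged 61.0 CPM in slow MEF, 4.87 CPM in fast MEF, 6.66 CPM in bulk MEF and 1.50 CPM in iPS. The median ratio of the slow MEF mean to a group mean plus 0.5 CPM was 13.5 over fast MEF, 8.64 over bulk MEF and 30.5 over iPS. The group nearest to slow MEF was bulk MEF for 68 genes, fast MEF for 46 and iPS for 19. iPS averaged under 1 CPM for 56 of the genes, bulk MEF for 21 and fast MEF for 18. Against the highest of the other 3 means the ratio was 4.01 to 80.9, with a median of 6.84.

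At the fold threshold the endothelin receptor gene Ednra (ratio 4.01), Dera (4.07) and Snai2 (4.08) were just inside, and Wipf1 (3.98), Pdpn (3.98) and Itgbl1 (3.94) just outside. At the level threshold Cnrip1 (20.4 CPM), Exph5 (20.7) and Nov (21.8) were just inside, and Bet1 (19.9), Gng7 (19.8) and Chl1 (19.3) just outside.

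**Figure D1:**
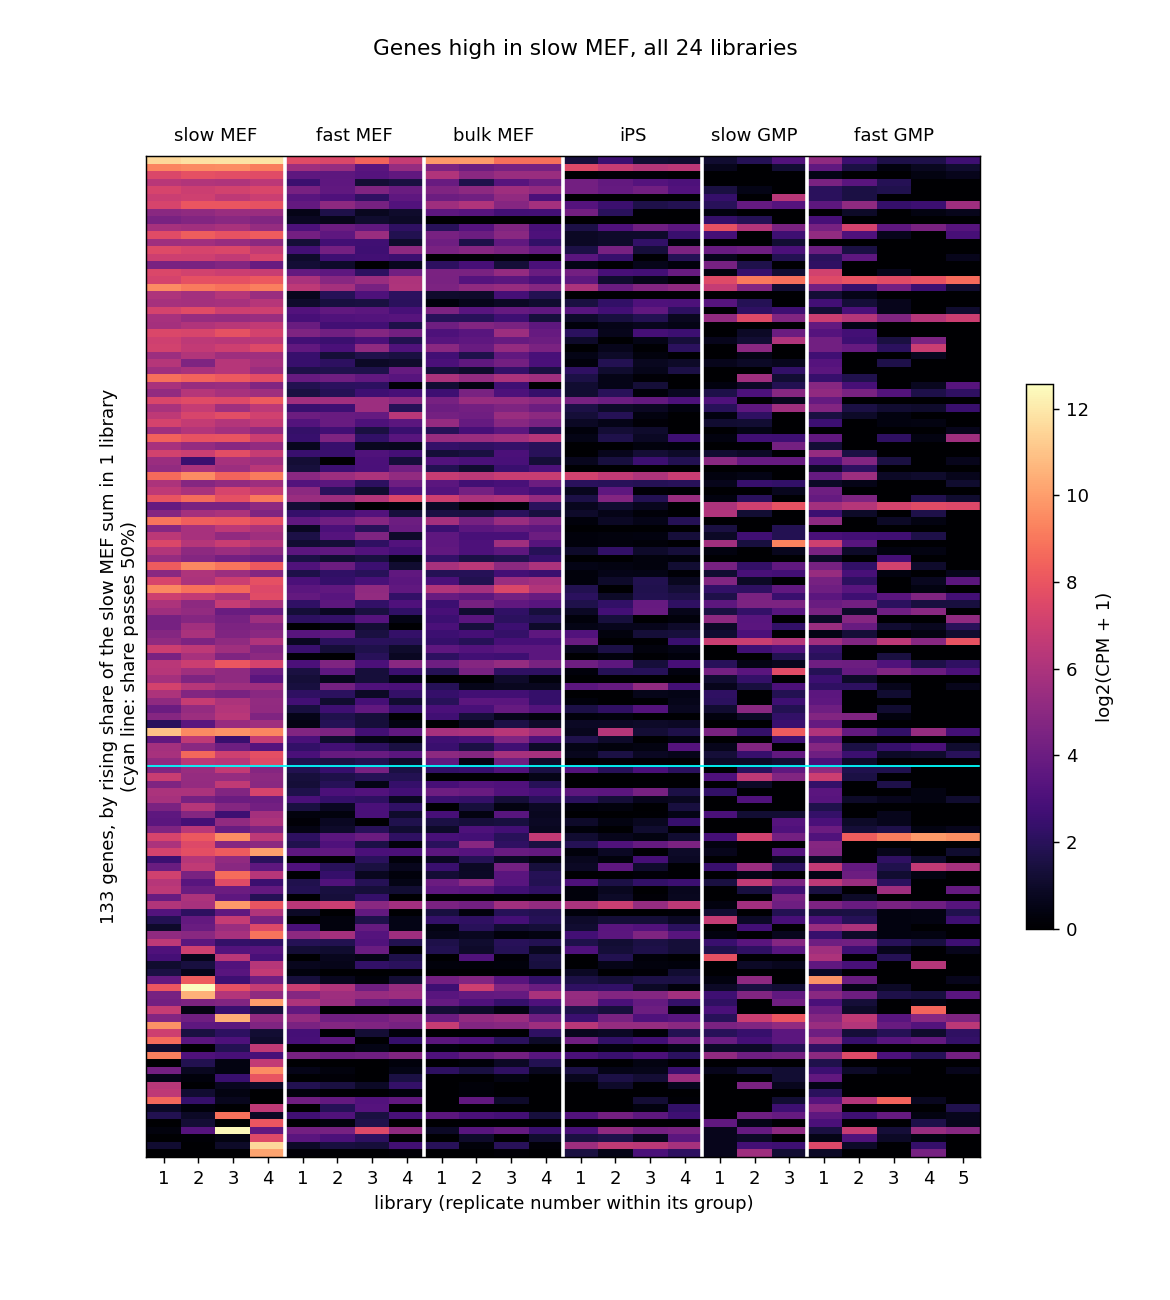
Level of each of the 133 genes (rows) in all 24 libraries (columns, by group and replicate) as log2(CPM + 1), sorted downwards by the share of the slow MEF sum that falls in 1 library. Above the cyan line 81 genes are bright in most or all slow MEF columns, and below it 52 genes owe over 50% of their slow MEF sum to a single column.

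Some of the genes were high in every slow MEF library and others in 1. For 88 of the 133, all 4 slow MEF libraries lay above all 12 libraries of fast MEF, bulk MEF and iPS. A highest level of the 12 others, where one is given for a gene, covers these libraries and not GMP. The same held for 6.44% of the 5901 genes that reached 20 CPM in slow MEF, but the choice of genes used these libraries, so nothing is read from the difference. The other 45 overlapped. Of all 133, 54 had a lowest slow MEF library at least 2 times the highest of the 12 others plus 0.5 CPM.

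A single library held over 50% of the slow MEF sum for 52 genes, over 75% for 32, over 90% for 23 and over 95% for 17. Among all 5901 genes the share passed 50% for 635 (10.8%) and 90% for 35. The library was replicate 1 for 12 of the 52, replicate 2 for 10, replicate 3 for 11 and replicate 4 for 19, so all 4 contributed. Of the 52, 11 still had all slow MEF libraries above the 12 others, against 77 of the remaining 81. Leaving out 1 slow MEF library at a time kept 112 genes without replicate 1, 119 without replicate 2, 123 without replicate 3 and 108 without replicate 4. In all, 67 passed the rule whichever slow MEF library was left out, 62 whichever of the 16 libraries was, and 90 with group medians in place of means.

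**Figure D2:**
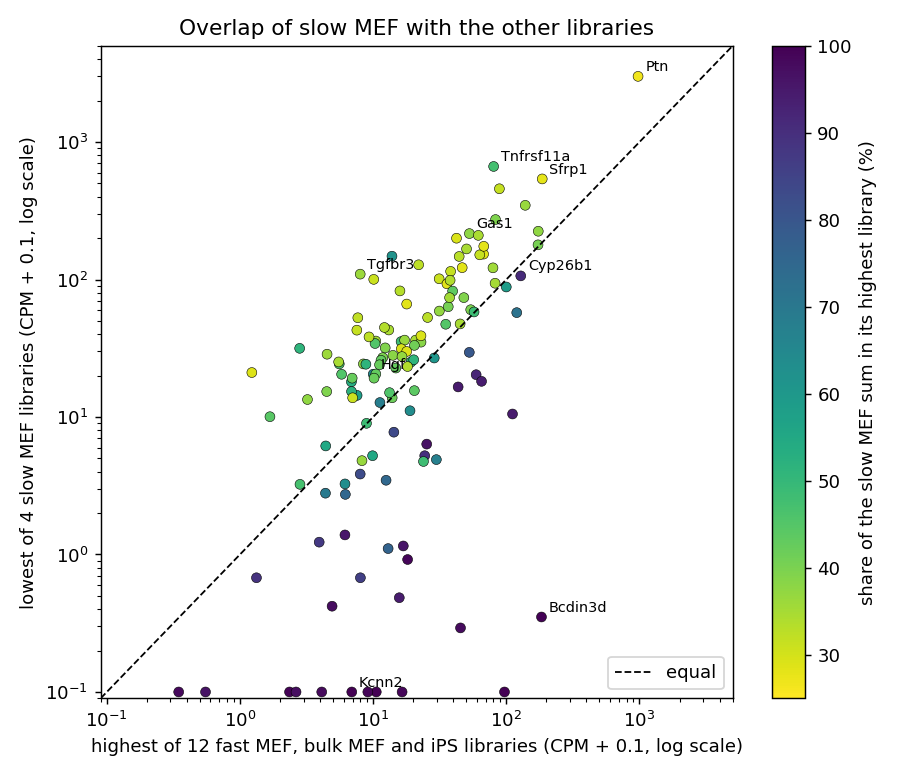
Lowest of the 4 slow MEF libraries (vertical) against the highest of the 12 fast MEF, bulk MEF and iPS libraries (horizontal) for the 133 genes, in CPM + 0.1 on log axes, coloured by the share of the slow MEF sum held by its highest library. The 88 genes above the dashed line do not overlap and are mostly pale, and the dark points along the lower edge, such as Kcnn2 and Bcdin3d, are low in at least 1 slow MEF library.

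Several of the highest ratios came from 1 library. Kcnn2, a calcium-activated potassium channel gene, had the highest ratio (80.9), with 0, 0, 0 and 1172 CPM in slow MEF. The other 12 libraries held at most 6.81 CPM of Kcnn2, so only replicate 4 was high. Plg, which encodes plasminogen, the precursor of the fibrin-cutting protease plasmin, had 0, 1.35, 0 and 264 CPM in slow MEF and at most 2.26 CPM in the 12 others. Replicate 4 again held nearly all of it.

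The predicted gene Gm16861 had 17.7, 0.673, 0.321 and 733 CPM in slow MEF, and Disc1, whose product is a scaffold protein studied in neurons, had 1.13, 0, 2.56 and 96.2 CPM. Rai2, named for its induction by retinoic acid, had 1.88, 0.577, 9.62 and 97.6 CPM. Replicate 4 was the high library for these as well. Serpina6, which encodes the corticosteroid-binding globulin, had 91.1, 1.25, 0.321 and 0 CPM in slow MEF, high in replicate 1 alone. The zinc finger gene Zfp184 had 0, 0.0962, 0.321 and 184 CPM, high in replicate 4. Bcdin3d, an RNA methyltransferase gene, had 0.251, 9.04, 5367 and 12.1 CPM, high in replicate 3, and up to 184 CPM in a fast MEF library.

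The remaining results are given by role, and genes named for their role beyond the rule stated in the methods were chosen after their values were seen. Of the 133 genes, 84 were placed in a role. Counts without overlap given per role stand beside 88 of all 133 genes and 6.44% of the 5901 genes. Since the choice used these libraries, nothing is read from these counts or from differences between roles. Roles were set with earlier results known and not over all genes, so the size of a role is not a result.

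Among secreted growth factors and guidance ligands, 4 genes were counted and none overlapped with the 12 other libraries. Hgf encodes hepatocyte growth factor, the ligand of the receptor Met, which mesenchymal cells make for epithelial neighbours. It had 134, 20.4, 423 and 77.1 CPM in slow MEF. The other groups had 0, 4.28, 0.677 and 0.217 CPM in fast MEF, 1.39, 0.890, 9.92 and 2.65 in bulk MEF and 0, 0, 0.117 and 0 in iPS. Hgf ranged widely within slow MEF, and its lowest slow MEF value was still above the highest of the others.

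Ptn encodes pleiotrophin, a heparin-binding growth factor, and had the highest slow MEF mean of the 133 in CPM, a scale not corrected for gene length, with 3004, 3604, 3712 and 3631 CPM in slow MEF. Its values in the 12 others were 195, 169.9, 349.6 and 107 CPM in fast MEF, 957, 976, 440.2 and 444 in bulk MEF and 1.63, 4.94, 1.29 and 1.13 in iPS. The 4 slow MEF libraries lay close together and the untreated bulk MEF were next. Figf, also named Vegfd, a growth factor of lymphatic vessels, had 48.3, 50.3, 39.7 and 31.3 CPM in slow MEF and at most 16.2 CPM in the 12 others. Efna2, a membrane-bound ephrin ligand, had 60.4, 62, 25 and 157 CPM, against at most 19.1 CPM.

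Of 5 genes of the Wnt pathway, in which secreted Wnt proteins act through Frizzled receptors, none overlapped. Sfrp1, a secreted decoy that binds Wnt proteins, had 646, 722, 740.2 and 539 CPM in slow MEF. In the 12 other libraries Sfrp1 had 46.1, 38.9, 9.93 and 39.4 CPM in fast MEF, 22.5, 15.6, 19.8 and 19.1 in bulk MEF and 186, 112, 75.8 and 86.6 in iPS. Here iPS and not a fibroblast group came next. Lgr5, a receptor for R-spondins that strengthens Wnt signals and marks several stem cells, had 58.6, 40.7, 43.9 and 25 CPM in slow MEF. Outside slow MEF the gene had 2.47, 3.24, 3.38 and 0.108 CPM in fast MEF, 1.29, 0.356, 5.41 and 0 in bulk MEF and 1.23, 0.460, 1.47 and 0 in iPS.

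Nkd1, an inhibitor of the pathway and commonly one of its target genes, had 27.6, 44.5, 82.5 and 24.2 CPM in slow MEF and at most 5.47 CPM in the 12 others. Fzd1, a Frizzled receptor, had 93.9, 163, 211 and 134 CPM, against up to 82.3 CPM in fast MEF, and Daam2, a formin of the Wnt pathway, had 34.1, 111, 62.5 and 36.5 CPM, against at most 10.2 CPM. A ligand-binding decoy, receptors and an intracellular inhibitor were thus all present in every slow MEF library.

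**Figure D3:**
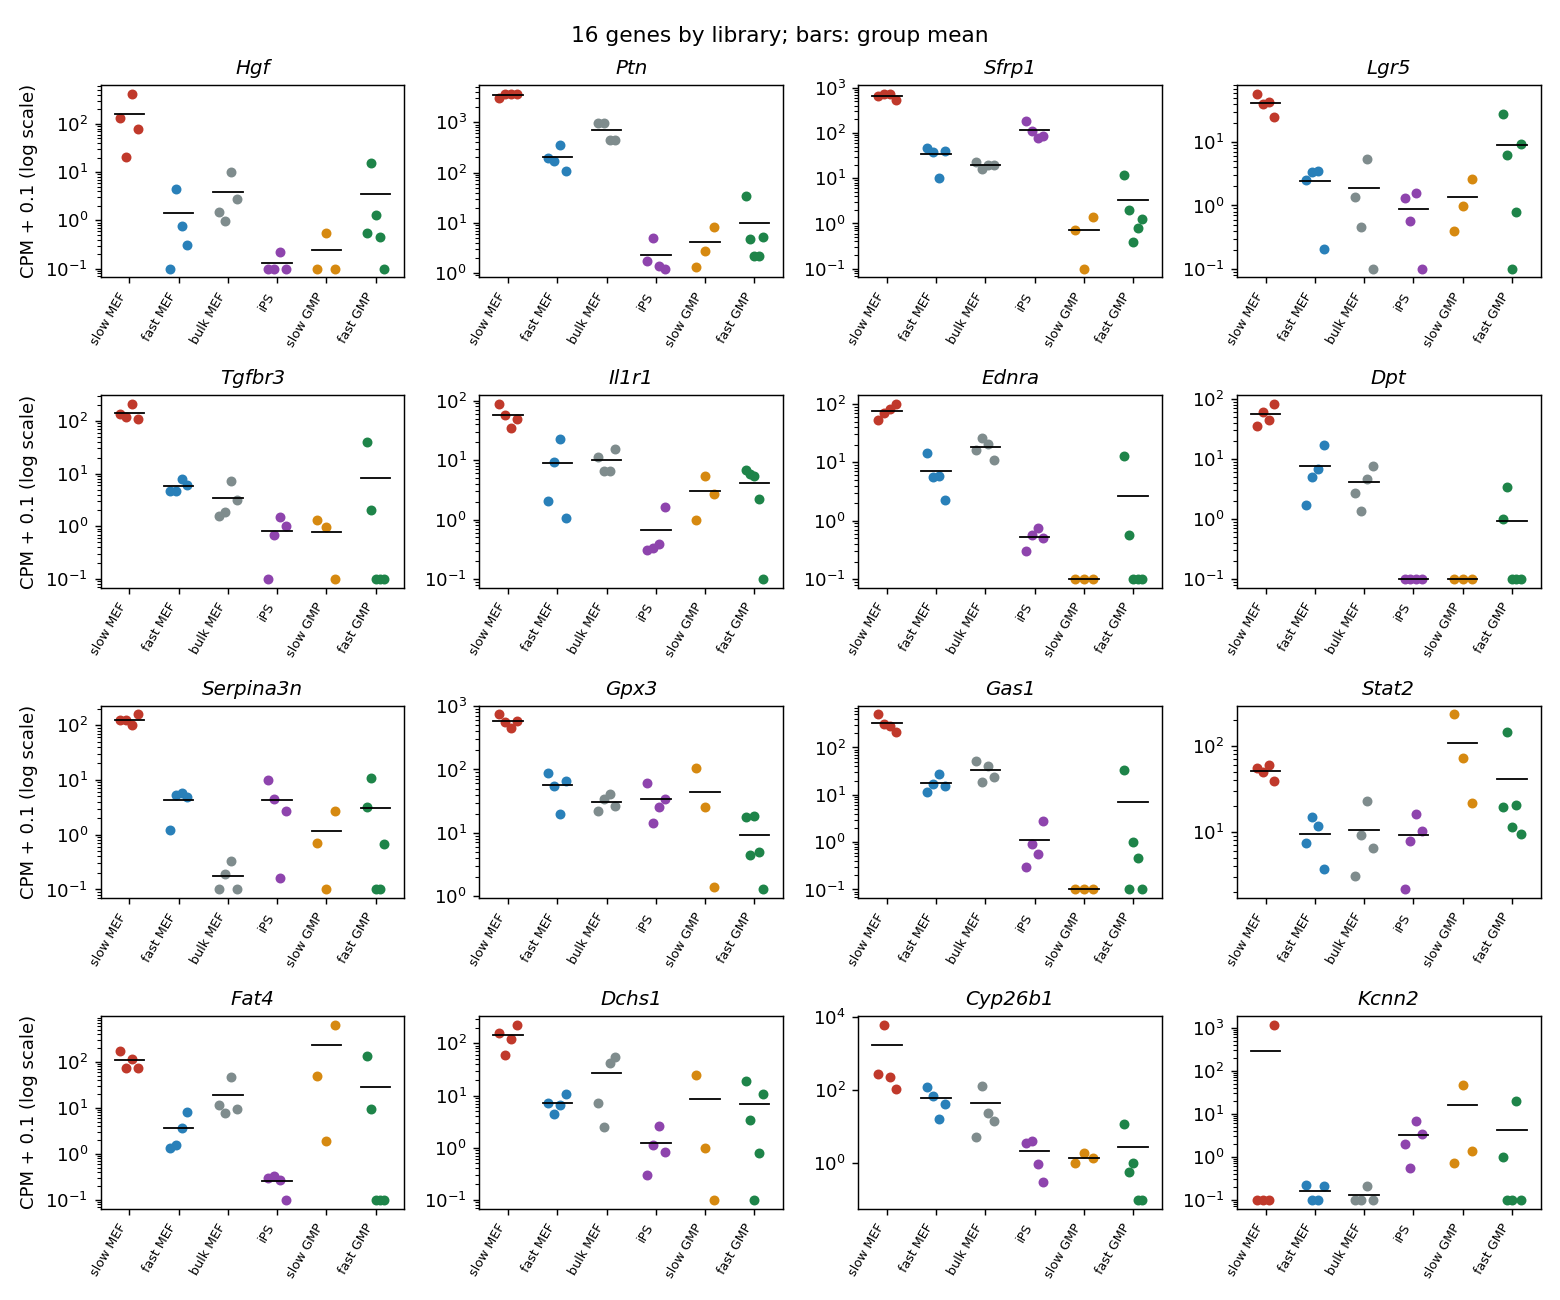
CPM + 0.1 (log axes) of 16 of the genes in every library of the 6 groups, with bars at the group means. The red slow MEF points lie above all fast MEF, bulk MEF and iPS points for 14 of the genes, while Cyp26b1 overlaps slightly and Kcnn2 is high in a single slow MEF library; Stat2 and Fat4 are also high in some GMP libraries.

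Receptors and their signal proteins numbered 12, of which 10 did not overlap. Tgfbr3 encodes betaglycan, which presents TGF-beta and inhibin to the signalling receptors. It had 138, 118, 209 and 109 CPM in slow MEF. The remaining libraries gave 4.56, 4.54, 7.90 and 5.96 CPM in fast MEF, 1.50, 1.78, 7.10 and 3.00 in bulk MEF and 0, 0.575, 1.41 and 0.923 in iPS. The lowest slow MEF library was far above all of them.

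Tnfrsf11a, which encodes RANK, the receptor that drives osteoclast formation, had 2002, 718, 841 and 664 CPM in slow MEF, 1 of which was well above the rest, and at most 80.2 CPM in the 12 others. The endothelin receptors Ednra, with 52.8, 69.1, 81.1 and 99.4 CPM, and Ednrb, with 44.7, 70.7, 46.6 and 48.7 CPM, were both in the set, and their highest values in the 12 others were 25.6 and 12.1 CPM. These receptors answer to endothelins, peptides best known for constricting vessels.

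Gpr123, an adhesion receptor also named Adgra1, had 23.3, 84, 14.3 and 22.4 CPM in slow MEF and at most 7.48 CPM in the 12 others. The 2 overlapping members of the role were Htr7, a serotonin receptor, with 0, 2.40, 0.321 and 99.1 CPM in slow MEF, and Unc5c, a netrin receptor, with 8.53, 3.37, 11.5 and 69.9 CPM. Both were high in replicate 4 only.

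Receptors of inflammatory cytokines were Il1r1, for interleukin 1, with 87.3, 57.3, 34.9 and 48.8 CPM in slow MEF, Osmr, for oncostatin M, with 149, 102, 73.7 and 97.7 CPM, and Il13ra1, for interleukins 4 and 13, with 54.6, 19.2, 15.2 and 15.8 CPM. In the 12 others they reached 22.8, 37.4 and 6.78 CPM. Jak2, a kinase that many such receptors use, had 128, 101, 63.3 and 199.6 CPM in slow MEF and at most 36.5 CPM in the 12 others. Stat2, part of the complex that binds interferon response elements, had 54.8, 49.2, 59 and 38.9 CPM in slow MEF, 7.27, 14.8, 11.7 and 3.58 CPM in fast MEF, 3.00, 8.99, 22.8 and 6.46 CPM in bulk MEF and 2.04, 7.70, 16 and 10.3 CPM in iPS. No slow MEF library of these genes fell to the level of the 12 others.

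Genes induced through Stat proteins often carry short elements near their start site, so the promoter letters of the set were read. RefSeq windows (GRCm38.p6, 250 bases before to 50 after the start) were found for 95 of the 133 genes. The core of the interferon-stimulated response element, GAAANNGAA on either strand, lay in 10 of the 95 (10.5%), beside 9.76% of 27025 genes with a window. The shared Stat site TTCNNNGAA lay in 12 (12.6%, beside 9.55%), the AP-1 site TGANTCA in 8 (8.42%, beside 8.97%), the C/EBP site TTGCNNAA in 12 (12.6%, beside 12.2%), the CRE core TGACGTC in 2 (2.11%, beside 3.60%) and TATAAA in 10 (10.5%, beside 15.7%). The widest gap between the set and all genes was that of TATAAA, which was less frequent in the set. A match is not a shown binding site. Overlaps between motifs were not removed.

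Stretches upstream of the start site of 3 genes with the core are shown, chosen after the matches were known, for the signal protein itself (Stat2), for a matrix gene that GMP also expressed (Tgfbi) and for the gene with 3 copies (Pcp4l1, whose protein resembles a calmodulin-binding protein of neurons). Capitals mark the core or its reverse complement, and each stretch runs 5′ to 3′ on the gene's strand in GRCm38.p6.
Stat2, plus strand, chr10:128270258-128270317: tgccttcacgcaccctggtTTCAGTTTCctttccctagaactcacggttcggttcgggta
Tgfbi, plus strand, chr13:56609361-56609420: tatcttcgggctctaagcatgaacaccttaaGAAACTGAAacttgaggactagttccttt
Pcp4l1, minus strand, chr1:171196429-171196508: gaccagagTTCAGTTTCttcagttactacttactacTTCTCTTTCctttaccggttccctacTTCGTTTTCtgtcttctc
Pcp4l1 had 74.2, 23.2, 78 and 56.5 CPM in slow MEF and at most 18 CPM in the 12 other libraries.

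Matrix and matrix-associated genes made the largest role, with 17 members, of which 16 did not overlap. Pamr1, a secreted protein with a protease-like domain, had 21, 25.5, 29.2 and 24.8 CPM in slow MEF and at most 1.13 CPM in the 12 others. Podn, a small leucine-rich proteoglycan gene, had 199.7, 303, 239 and 293 CPM, against at most 42.2 CPM. Its relatives Fmod, with 28, 57.3, 91 and 62.7 CPM, and Aspn, with 174, 228, 208 and 199 CPM, reached 14 and 67.6 CPM in the 12 others. Proteoglycans of this family bind collagen fibrils. Of the collagen genes themselves, only Col3a1 met both thresholds, and it was left out by symbol.

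Dpt, dermatopontin, had 36.1, 61.7, 45.4 and 82.5 CPM in slow MEF and at most 17.1 CPM in the 12 others. Fbln1, fibulin 1, a glycoprotein of elastic fibres and basement membranes, had 403, 749, 346 and 545 CPM, against at most 139 CPM. Fbn2, a fibrillin gene, had 687, 468, 374 and 179 CPM, with the lowest close to the 173 CPM of a bulk MEF library.

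Matn2, matrilin 2, an adaptor of matrix filaments, had 128, 90.1, 82.5 and 85.3 CPM, against at most 15.8 CPM, and Mgp, matrix Gla protein, an inhibitor of calcification, had 29.9, 34, 41.8 and 43.2 CPM, against at most 17.8 CPM. Nov, also named Ccn3, a matricellular protein, had 13.3, 20.4, 21 and 32.7 CPM, against at most 3.11 CPM. Tgfbi, a TGF-beta-induced adhesion protein, had 151, 226, 223 and 278 CPM, against at most 63.1 CPM. Hmcn1, hemicentin 1, was the one that overlapped, with 1.13, 1.73, 8.17 and 77.3 CPM in slow MEF and up to 3.83 CPM in the 12 others.

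Islr, an immunoglobulin-like secreted protein of mesenchymal cells, had 115, 39.2, 38.9 and 31.5 CPM in slow MEF and at most 2.71 CPM in the 12 others, and Abi3bp, a matrix protein that binds cells and collagen, had 54, 23.4, 34.1 and 9.95 CPM, against at most 1.58 CPM. Egfl6, an EGF-like matrix protein, had 142, 77.6, 48.6 and 47.2 CPM, against at most 35 CPM. C1qtnf6, a secreted relative of complement C1q, had 253, 416, 224 and 533 CPM, against up to 174 CPM in fast MEF.

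Cpxm1, a secreted carboxypeptidase-like protein, had 82.1, 69.7, 66.2 and 86.1 CPM in slow MEF and at most 17.8 CPM in the 12 others. Ebf4, a transcription factor gene next to it on chromosome 2 with 0 coding genes between, had 19.2, 27.4, 19.1 and 47.8 CPM, against at most 10.1 CPM. Reads where such neighbours overlap could not be told apart in these counts.

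Enzymes that build or trim sugar chains of the matrix were 3, of which 2 did not overlap. Csgalnact1, which starts chondroitin sulfate chains, had 447, 351, 287 and 209 CPM in slow MEF and at most 61.5 CPM in the 12 others. Sulf1, which removes sulfate from heparan sulfate, had 172, 139, 121 and 114 CPM, against at most 38.1 CPM. A4galt, a glycolipid galactosyltransferase gene, had 33.8, 29.4, 56.2 and 471 CPM, the highest in replicate 4, and overlapped with fast MEF at up to 52.6 CPM.

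Of 2 giant cadherins, Fat4 and its ligand Dchs1, which together orient neighbouring cells, neither overlapped. Fat4 had 169.5, 74.8, 115 and 73.7 CPM and Dchs1 162, 60.2, 120.2 and 227 CPM in slow MEF. Bulk MEF reached 47.9 CPM for Fat4 and 54 CPM for Dchs1, just under the lowest slow MEF library of the second gene, while fast MEF stayed at or under 8.13 and 10.4 CPM.

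Serpins, acute-phase and blood proteins numbered 7, of which 4 did not overlap. Serpina3n, a protease inhibitor of the acute phase, had 125, 125, 100.2 and 157 CPM in slow MEF. The other groups had 1.11, 5.19, 5.64 and 4.77 CPM in fast MEF, 0, 0.0890, 0.225 and 0 in bulk MEF and 10.0, 4.37, 0.0587 and 2.67 in iPS. It was close to 0 in bulk MEF and high in each slow MEF library. Its paralog Serpina3g had 34, 22.6, 33.5 and 67.2 CPM in slow MEF and at most 14.7 CPM in the 12 others. The 2 genes lie on chromosome 12 with 4 coding genes between them, and the counting could split reads between such close copies, so their levels are uncertain.

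Ptx3, a soluble pattern receptor of innate immunity, had 65.8, 51.6, 74.4 and 42.7 CPM, against at most 7.44 CPM, and Pros1, protein S, a cofactor that curbs clotting, had 151, 196, 128 and 129 CPM, against at most 21.9 CPM. Clu, clusterin, an extracellular chaperone, had 18.1, 21.9, 25.8 and 1005 CPM and so was in the set through replicate 4 alone, with up to 65.1 CPM in fast MEF.

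Genes of redox and retinoid handling were 5, of which 3 did not overlap. Gpx3, a secreted glutathione peroxidase, had 742, 555, 457 and 589.9 CPM in slow MEF. Its values in the 12 others were 88.7, 54.1, 19.6 and 65.3 CPM in fast MEF, 22.1, 34.3, 40.5 and 26.2 in bulk MEF and 61.9, 14.4, 25.3 and 34.3 in iPS. Sod3, the extracellular superoxide dismutase, had 93.5, 58.9, 154 and 108 CPM, against at most 31.3 CPM, and Cdo1, which oxidises cysteine, had 338, 240.1, 251 and 121 CPM, against at most 79.3 CPM. Both Gpx3 and Sod3 act outside the cell.

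Cyp26b1, which breaks down retinoic acid, had 272, 6029, 223 and 106 CPM in slow MEF. In the 12 other libraries Cyp26b1 had 118, 67.6, 16.2 and 40.3 CPM in fast MEF, 5.25, 128, 24.1 and 14.4 in bulk MEF and 3.47, 3.91, 0.881 and 0.205 in iPS. Replicate 2 held 90.9% of its slow MEF sum, and replicate 4 lay below the highest bulk MEF and fast MEF libraries. Adh1, an alcohol dehydrogenase that can oxidise retinol, had 13.8, 63.1, 11.2 and 2.69 CPM in slow MEF, where replicate 4 overlapped with the 4.29 CPM of a fast MEF library.

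Lipid genes were 5, of which 3 did not overlap. Apod, a small lipid carrier often raised in arrested or aged fibroblasts, had 55.5, 52.6, 56.4 and 78.3 CPM in slow MEF and at most 7.57 CPM in the 12 others. Lpl, lipoprotein lipase, had 58, 40.6, 38.1 and 41.6 CPM, against at most 9.22 CPM. Abcg1, a cholesterol exporter, had 78.9, 9.62, 195 and 4.80 CPM, and Ptges, a synthase of prostaglandin E2, had 61.4, 183, 26.8 and 31.6 CPM, so both varied widely between slow MEF libraries and overlapped.

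The growth arrest genes Gas1 and Gas2, first found in fibroblasts that had stopped dividing in low serum, were both in the set and neither overlapped. Gas1, a membrane protein that also binds Hedgehog, had 499, 318, 287 and 216 CPM in slow MEF. Outside slow MEF the gene had 11.5, 16.7, 27.3 and 15.6 CPM in fast MEF, 52.7, 19, 41.1 and 23.3 in bulk MEF and 0.204, 0.805, 0.470 and 2.67 in iPS. Gas2, which binds actin, had 26.7, 59.9, 23.9 and 30.6 CPM in slow MEF and at most 11.1 CPM in the 12 others. Gas2 was therefore closer to the other groups than Gas1 was.

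Transcription factors and chromatin proteins were 15, of which 8 did not overlap. Maf had 298, 702, 498 and 273 CPM in slow MEF and at most 82.9 CPM in the 12 others. Snai2, which encodes Slug, a repressor of epithelial genes, had 58.5, 105, 47.4 and 90.2 CPM, against up to 44.9 CPM in fast MEF and 22.8 CPM in bulk MEF. Glis3, a zinc finger factor, had 3.14, 10.4, 39.9 and 47.5 CPM, and Ldb2, a LIM domain-binding cofactor, had 57.5, 37.6, 28.5 and 36.4 CPM, with at most 2.72 and 4.41 CPM in the 12 others. Prox1, a master factor of lymphatic vessels, had 389.8, 4.23, 0.641 and 0 CPM and Sp3 20.2, 1487, 73.6 and 33.9 CPM, so each was high in 1 library.

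Tshz2, a teashirt zinc finger factor, had 27.4, 54.1, 63.9 and 24.2 CPM in slow MEF and at most 8.35 CPM in the 12 others, and Setbp1, a SET-binding protein, had 124, 89.9, 48.6 and 25.8 CPM, against at most 11.4 CPM. Hivep3, a zinc finger factor that represses bone formation, had 19.1, 49, 22 and 25.4 CPM, against at most 6.86 CPM. Satb1, a chromatin organiser of T cells, had 46.8, 36.6, 14.6 and 13.7 CPM and just overlapped with iPS at up to 13.8 CPM. Zfp467, described as favouring fat over bone cell fate in mouse, had 43.5, 4.71, 55.3 and 47.9 CPM, with replicate 2 low, and Zfp30 had 12.5, 293, 5.13 and 16.7 CPM, with replicate 2 high.

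Channels and transporters were 7, of which 3 did not overlap. Pkd2, a calcium-permeable channel of the primary cilium, had 155, 122, 138 and 165 CPM in slow MEF, against at most 46.5 CPM in the 12 others. Slc24a3, a sodium, calcium and potassium exchanger, had 20.5, 57, 23.6 and 31.5 CPM, against at most 10.4 CPM. Slc36a1, a lysosomal amino acid transporter, had 26, 16.4, 1369 and 35.7 CPM and Kcnip3, a calcium sensor of potassium channels, 7.66, 128, 8.65 and 9.25 CPM, each high in 1 library. Scn10a, a sodium channel of sensory neurons, had 6.15, 0.577, 82.7 and 6.67 CPM, high in replicate 3 alone. Lgals3bp, a secreted glycoprotein that binds galectins and is often induced by interferon, stood outside these roles, with 153, 256, 256 and 232 CPM in slow MEF and at most 67.4 CPM in the 12 others.

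The 49 genes without a role here included 26 that did not overlap and 13 for which 1 slow MEF library held over 90% of the sum. Among the 26, Phyhd1, a dioxygenase gene, had 189.5, 152, 170.0 and 101 CPM in slow MEF and at most 31.2 CPM in the 12 others, and A430110N23Rik, also named Ssc5d, a soluble scavenger receptor gene, had 169, 160.1, 236 and 147 CPM, against at most 44.2 CPM. Synpo, synaptopodin, an actin-associated protein, had 137, 98.6, 124 and 182 CPM, against at most 37.8 CPM.

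Mtss1l, also named Mtss2, a membrane-bending protein, had 167, 195, 182 and 292 CPM in slow MEF and at most 50.2 CPM in the 12 others. Mylip, a ubiquitin ligase that degrades the LDL receptor, had 82.3, 123, 271 and 143 CPM, against at most 39.4 CPM. Prkg1, the kinase activated by cyclic GMP, had 58, 383, 129 and 219.8 CPM, with the lowest just above the 57.1 CPM of a bulk MEF library.

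Igsf10, an immunoglobulin superfamily gene, had 119, 131, 92.9 and 117 CPM in slow MEF, against at most 35.7 CPM in the 12 others, and Tspan11, a tetraspanin, had 35.3, 86.1, 76.8 and 188 CPM, against at most 16.1 CPM. Mr1, which presents vitamin metabolites to T cells, had 24.1, 37, 95.5 and 29.7 CPM, against at most 8.72 CPM, and Casp12, an inflammatory caspase family member, had 39, 26.4, 17.9 and 15.2 CPM, against at most 4.38 CPM. All of these slow MEF libraries stood above the 12 others.

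The 13 held by 1 library included genes of DNA repair, centrioles and mitochondria. Nsmce2, a SUMO ligase of DNA repair, had 2.51, 0.866, 441 and 0.819 CPM in slow MEF, Cetn2, a centriole protein, 419.8, 10.1, 7.37 and 1.05 CPM, and Pptc7, a mitochondrial phosphatase, 591, 7.69, 6.25 and 6.44 CPM. Their other slow MEF values lay within the range of the 12 other libraries or below it, where the highest were 18.1, 16.7 and 25.2 CPM. Dera, an aldolase of deoxyribose phosphate, had 821, 11.2, 10.4 and 24.2 CPM in slow MEF and up to 111 CPM in a bulk MEF library.

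Whether other genes of the same pathways behaved alike was read from gene lists. These tests used edgeR's quasi-likelihood test with Benjamini-Hochberg adjustment over all genes. Higher in slow MEF than in bulk MEF were 620 of 11253 genes (5.51%), and lower 561 (4.99%). Higher in slow MEF than in fast MEF were 2035 of 11742 genes (17.3%), and lower 1691 (14.4%). The counts below leave out the chosen genes, which had to differ in these comparisons. Shares and medians over all genes still hold the chosen genes, so they and the list counts are of unlike sets. DESeq2 tested 17767 genes against bulk MEF and 18208 against fast MEF, so its counts are not shares of the list sizes given for edgeR. Both comparisons share the slow MEF libraries. The slow MEF against bulk MEF calls numbered 1181 in both directions, 759 without slow MEF replicate 3 and 762 without bulk MEF replicate 4, and 56 with all 24 libraries in 1 fit. The 23 genes named below were taken by the smallest p against bulk MEF in their lists. That many pass there follows from this choice, and nothing is read from it. Of the 23, 21 passed against bulk MEF and 18 against fast MEF, but 1 and 6 with all 24 libraries in 1 fit. Means are given ± SD over 4 libraries on the CPM scale above, and log2 differences ± SE on the scale of the fit. Where 2 differences are given for a gene, the first is over fast MEF and the second over bulk MEF. The median log2 difference of all genes tested was 0.03 against bulk MEF and 0.11 against fast MEF.

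In the Wnt list, 1 of 16 other genes was higher in slow MEF than in bulk MEF and 0 were lower by edgeR's test, with a median log2 difference of 0.74. The counts were 3 and 1 at an unadjusted p under 0.05, and 4 and 1 of 29 by DESeq2. Lgr4, a relative of Lgr5, averaged 32.2 ± 11 CPM in slow MEF and 6.23 ± 2.55 CPM in bulk MEF (SD, n = 4 each), a log2 difference of 2.21 ± 0.48 (SE, edgeR adjusted p = 0.0145). Against fast MEF, 8 of 17 were higher and 3 lower, with a median of 1.52. The ligand gene Wnt5a averaged 209 ± 39.8 CPM in slow MEF, 12.1 ± 4.85 CPM in fast MEF and 114 ± 10.5 CPM in bulk MEF, a log2 difference of 4.41 ± 0.34 over fast MEF (edgeR adjusted p = 2.5e-05) and of 0.71 ± 0.24 over bulk MEF (edgeR adjusted p = 0.0815), the second past the threshold with DESeq2 (adjusted p = 0.0129). Wnt4, another ligand, differed by 3.01 ± 0.49 on the log2 scale over fast MEF (edgeR adjusted p = 0.00133) and by 1.45 ± 0.50 over bulk MEF (edgeR adjusted p = 0.0908), again past it with DESeq2 (adjusted p = 0.037).

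In the cytokine receptor list, 8 of 29 other genes were higher in slow MEF than in bulk MEF and 1 was lower, and 14 of 29 were higher and 3 lower than in fast MEF. Against bulk MEF, 13 were higher and 4 lower at an unadjusted p under 0.05, and 14 of 37 higher and 2 lower by DESeq2. By edgeR's test 4 to 6 were higher with 1 library left out, with 4 without slow MEF replicate 2, 3 or 4 or bulk MEF replicate 4. The median log2 differences were 1.20 over bulk MEF and 1.75 over fast MEF. Il6st encodes gp130, the signalling chain shared by the oncostatin M and LIF receptors. It averaged 245 ± 36.1 CPM in slow MEF, 61 ± 3.62 CPM in fast MEF and 77.5 ± 14.6 CPM in bulk MEF, with log2 differences of 2.31 ± 0.23 over fast MEF (edgeR adjusted p = 8.32e-05) and 1.50 ± 0.25 over bulk MEF (edgeR adjusted p = 0.004). Lifr, the LIF receptor chain, differed by 3.01 ± 0.50 (edgeR adjusted p = 0.00153) and 2.88 ± 0.48 (edgeR adjusted p = 0.00385) over the same groups. Ntrk2, a neurotrophin receptor gene, averaged 19 ± 17.7 CPM in slow MEF and 2.47 ± 3.25 CPM in fast MEF, and was at 0 in most bulk MEF libraries.

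Of 32 other interferon response genes kept by symbol, 7 were higher in slow MEF than in bulk MEF and 0 lower by edgeR's test (16 and 0 at an unadjusted p under 0.05). By DESeq2, which tested 41, the counts were 16 and 0. With 1 library left out 5 to 9 were higher by edgeR's test. Against fast MEF 11 of 33 were higher and 2 lower. The median log2 differences were 1.48 over bulk MEF and 1.06 over fast MEF. Iigp1, an interferon-induced GTPase, averaged 5.84 ± 1.17 CPM in slow MEF and 0.123 ± 0.247 CPM in fast MEF and had no counts in bulk MEF. I830012O16Rik averaged 15 ± 14.5 CPM in slow MEF, 0.457 ± 0.522 CPM in fast MEF and 0.0824 ± 0.103 CPM in bulk MEF. Members of this family left out by symbol include Ifit1, Ifit3, Irf7 and Oasl2, which met both thresholds.

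Of 26 other growth factor genes, 3 were higher and 2 lower in slow MEF than in bulk MEF by edgeR's test. The counts were 7 and 5 at an unadjusted p under 0.05, and 7 and 2 of 42 by DESeq2. With 1 library left out 2 to 5 were higher, the lowest without slow MEF replicate 2, 3 or 4. Against fast MEF 16 of 26 were higher and 4 lower, and the medians were -0.19 over bulk MEF and 2.61 over fast MEF. Csf1, the growth factor of macrophages, averaged 341 ± 89 CPM in slow MEF, 28.2 ± 11.5 CPM in fast MEF and 1666 ± 141 CPM in bulk MEF, so that slow MEF lay between, with log2 differences of 3.87 ± 0.39 over fast MEF (edgeR adjusted p = 8.83e-05) and -2.46 ± 0.22 over bulk MEF (edgeR adjusted p = 0.000109). Hbegf, an EGF receptor ligand, likewise differed by 2.31 ± 0.56 (edgeR adjusted p = 0.0106) and -3.15 ± 0.32 (edgeR adjusted p = 0.000225). Angptl2, a secreted angiopoietin-like protein, was higher than in both, with log2 differences of 4.08 ± 0.38 (edgeR adjusted p = 6.24e-05) and 1.35 ± 0.26 (edgeR adjusted p = 0.00863).

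Of 24 other retinoid and detoxification genes, 5 were higher in slow MEF than in bulk MEF and 0 lower by edgeR's test (7 and 1 at an unadjusted p under 0.05, 7 and 0 by DESeq2), and 3 to 6 were higher with 1 library left out, the lowest without bulk MEF replicate 1. Against fast MEF 13 of 22 were higher and 3 lower, and the medians were 1.10 over bulk MEF and 1.85 over fast MEF. Mt2, a metallothionein, averaged 117 ± 40.9 CPM in slow MEF, 37.2 ± 16.2 CPM in fast MEF and 14.1 ± 7.83 CPM in bulk MEF (log2 differences 1.98 ± 0.40, edgeR adjusted p = 0.00407, and 2.85 ± 0.48, edgeR adjusted p = 0.00438). Xdh, xanthine dehydrogenase, differed by 4.88 ± 0.89 (edgeR adjusted p = 0.00241) and 4.79 ± 0.92 (edgeR adjusted p = 0.00803). Aldh3a1, an aldehyde dehydrogenase, went the other way against fast MEF: it averaged 45.2 ± 16.3 CPM in slow MEF, 1119 ± 186 CPM in fast MEF and 0.615 ± 0.791 CPM in bulk MEF, with log2 differences of -4.30 ± 0.32 (edgeR adjusted p = 1.7e-05) and 6.00 ± 0.95 (edgeR adjusted p = 0.00323).

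Of 23 other quiescence and cell cycle arrest genes, 3 were higher and 1 lower in slow MEF than in bulk MEF by edgeR's test. The counts were 4 and 4 at an unadjusted p under 0.05, and 3 and 2 of 24 by DESeq2. With 1 library left out 1 to 3 were higher, the lowest without slow MEF replicate 3. Against fast MEF 12 of 23 were higher and 1 lower, and the medians were 0.31 over bulk MEF and 1.48 over fast MEF. Sesn3, a stress-responsive inhibitor of mTORC1, averaged 95.9 ± 20.0 CPM in slow MEF, 12.8 ± 9.58 CPM in fast MEF and 8.85 ± 4.88 CPM in bulk MEF (log2 differences 3.27 ± 0.52, edgeR adjusted p = 0.00118, and 3.31 ± 0.45, edgeR adjusted p = 0.00145). Ccng2, a cyclin linked to arrest, differed by 5.52 ± 1.07 (edgeR adjusted p = 0.0034) and 2.58 ± 0.60 (edgeR adjusted p = 0.0198). Sesn1 differed by 3.96 ± 0.97 over bulk MEF (edgeR adjusted p = 0.0248) and by 1.35 ± 0.60 over fast MEF (edgeR adjusted p = 0.116). Against bulk MEF the Sesn1 call was lost in 6 of 14 alternatives, among them the fit of all 24 libraries (edgeR adjusted p = 0.122) and fits leaving out 1 of bulk MEF replicates 1 and 2 and slow MEF replicates 3 and 4. The Ccng2 call was lost in 4 of 15, among them the fit of all 24 libraries (edgeR adjusted p = 0.498) and fits without bulk MEF replicate 4 or slow MEF replicate 3.

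Of 8 other complement and acute-phase genes, 5 were higher in slow MEF than in bulk MEF and 0 lower by edgeR's test (6 and 0 at an unadjusted p under 0.05, 9 and 0 by DESeq2, which tested more genes). With 1 library left out 1 to 4 were higher, the lowest without slow MEF replicate 2. Against fast MEF 3 of 9 were higher and 0 lower by edgeR's test (4 and 0 unadjusted, 6 and 0 by DESeq2). The medians were 2.19 over bulk MEF and 1.29 over fast MEF. Serping1, the C1 inhibitor, averaged 40.1 ± 13.8 CPM in slow MEF, 2.56 ± 0.784 CPM in fast MEF and 4.20 ± 4.23 CPM in bulk MEF (log2 differences 4.26 ± 0.50, edgeR adjusted p = 0.000216, and 3.15 ± 0.80, edgeR adjusted p = 0.0292). The protease gene C1s differed by 2.93 ± 0.79 over bulk MEF (edgeR adjusted p = 0.0365) but had 15.7 ± 4.34 CPM in slow MEF and 19.8 ± 7.47 CPM in fast MEF, and C1rl differed by 3.66 ± 0.77 over bulk MEF (edgeR adjusted p = 0.013) and 1.91 ± 0.77 over fast MEF (edgeR adjusted p = 0.0815). Against bulk MEF the C1s call was lost in 7 of 15 alternatives, among them the fit of all 24 libraries (edgeR adjusted p = 0.268) and fits without slow MEF replicate 1, 2 or 3 or bulk MEF replicate 1 or 3. The Serping1 call was lost in 6 of 15, in the fit of all 24 libraries (edgeR adjusted p = 0.242) and without slow MEF replicate 1, 2 or 3 or bulk MEF replicate 1 or 4.

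Of 24 other G protein-coupled receptor and related signalling genes, 4 were higher and 3 lower in slow MEF than in bulk MEF (7 and 4 at an unadjusted p under 0.05, 8 and 4 by DESeq2), and 10 of 26 were higher and 4 lower than in fast MEF, with medians of 0.17 over bulk MEF and 2.15 over fast MEF. Lpar1, a lysophosphatidic acid receptor, was higher than in both, with log2 differences of 3.74 ± 0.38 over fast MEF (edgeR adjusted p = 9.12e-05) and 2.06 ± 0.33 over bulk MEF (edgeR adjusted p = 0.00339). Gpr133, an adhesion receptor, was lower than in fast MEF, with a log2 difference of -2.16 ± 0.49 (edgeR adjusted p = 0.00758), and higher than in bulk MEF, at 4.81 ± 0.80 (edgeR adjusted p = 0.00404). F2rl1, a protease-activated receptor, was lower than in bulk MEF, with a log2 difference of -2.60 ± 0.45 (edgeR adjusted p = 0.00519).

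Of 22 other adipocyte and lipid genes, 4 were higher and 3 lower in slow MEF than in bulk MEF (6 and 4 by DESeq2, and 1 to 2 higher whichever library was left out), and 8 of 21 were higher and 5 lower than in fast MEF, with medians of 0.09 over bulk MEF and 0.35 over fast MEF. Of 9 other prostaglandin genes, 0 were higher and 1 lower than in bulk MEF by edgeR's test (1 and 1 at an unadjusted p under 0.05 and by DESeq2), and 4 were higher and 3 lower than in fast MEF, with medians of 0.13 and 0.32 over the same groups. Of 9 other cartilage, bone and tendon genes, 3 were higher and 0 lower than in bulk MEF (4 and 0 at an unadjusted p under 0.05, 6 and 0 by DESeq2, which tested more genes), and 6 were higher and 1 lower than in fast MEF, with medians of 0.44 and 3.01.

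Among lists that held no member, 1 of 25 BMP and TGF-beta genes was higher and 3 lower in slow MEF than in bulk MEF (4 and 5 at an unadjusted p under 0.05, 2 and 4 by DESeq2), and 14 were higher and 1 lower than in fast MEF. With 1 library left out, 0 to 1 of them were higher than in bulk MEF and 3 lower by edgeR's test. Of 35 mesenchymal and homeobox factor genes, 3 were higher and 1 lower than in bulk MEF (8 and 5 at an unadjusted p under 0.05, 6 and 2 by DESeq2). By edgeR's test 0 were higher without slow MEF replicate 2, slow MEF replicate 4 or bulk MEF replicate 4. Against fast MEF 18 of 31 were higher and 1 lower. Of 15 antigen processing and MHC class I genes, 2 were higher and 0 lower than in bulk MEF by edgeR's test (5 and 0 at an unadjusted p under 0.05, 3 and 0 by DESeq2), and 8 of 13 were higher and 0 lower than in fast MEF (9 and 0, and 11 and 0). With 1 library left out, 1 was higher than in bulk MEF, or 2 without slow MEF replicate 1, and 6 to 7 than in fast MEF.

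GMP were not used to choose the genes, and some of the genes that were high only in slow MEF among the 4 groups were high in GMP too. Of the 133 genes, 95 were also at least 4 times the mean plus 0.5 CPM of both GMP groups, as were 1161 (19.7%) of the 5901 genes that reached 20 CPM in slow MEF. For 65 all 20 other libraries lay below the lowest slow MEF library, beside 258 (4.37%) of the 5901, and since the choice of genes used the slow MEF libraries, nothing is read from these differences. Of the 88 genes above the 12 others, 23 had a GMP library that reached their lowest slow MEF library. A GMP group averaged 20 CPM or more for 32 genes and exceeded the slow MEF mean for 13. The summed level of the set was 1616 to 3019 CPM in slow GMP and 1832 to 3685 CPM in fast GMP, ranges that overlap with that of bulk MEF. The 3685 CPM was fast GMP replicate 1, where 18402 genes and 128 of the set had counts. The other fast GMP libraries summed to 1832 to 2472 CPM, with counts for 9380 to 13904 genes and 59 to 91 of the set. Rn45s and Lars2 took 19.9 to 48.9% of the counts in GMP libraries and 3.05 to 11.7% in the others. The part of this in the GMP levels was not tested.

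Nov had 62.4, 132 and 236 CPM in slow GMP and 51.9, 75.4, 152, 199 and 175 CPM in fast GMP, all of them above the slow MEF libraries. Tgfbi had 188, 525 and 447 CPM in slow GMP and 193, 242, 196, 241 and 399 CPM in fast GMP. Serpina3g had 118, 121 and 76.2 CPM in slow GMP and 50.6, 24.8, 89.4, 28.5 and 239.8 CPM in fast GMP, while its paralog Serpina3n reached at most 2.56 and 11 CPM there. Nov, Tgfbi and Serpina3g were detected in all 8 GMP libraries.

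Islr had 7.80, 91.7 and 24.3 CPM in slow GMP and 119.9, 1.91, 0, 0 and 0 CPM in fast GMP, and Tshz2 had 66.9, 1.32 and 0 CPM in slow GMP and 4.92, 0.954, 0, 2.11 and 0 CPM in fast GMP. Each was above every slow MEF library in 1 GMP library. Tnfrsf11a reached 301 CPM in slow GMP and 68 CPM in fast GMP, Maf 20.1 and 139.9 CPM, and Plg 11.4 and 7.16 CPM. Nkd1 reached 3.84 CPM in slow GMP and 26 CPM in fast GMP, just above its lowest slow MEF library, and Igsf10 82 and 3.13 CPM.

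Lpl had 36.6, 193 and 25 CPM in slow GMP and 122, 74.4, 25.1, 74.5 and 123 CPM in fast GMP. Vps37d, a sorting complex subunit, had 6.90, 0 and 0 CPM in slow GMP and 15.2, 0.954, 0, 359 and 0 CPM in fast GMP, 1 of them far above the rest. Scn10a had 231, 0 and 0 CPM in slow GMP and 64, 0, 2.69, 0 and 0 CPM in fast GMP. Vps37d and Scn10a were thus high in 1 or 2 GMP libraries, as they were high in 1 slow MEF library. Stat2 had 232, 72.8 and 21.8 CPM in slow GMP and 19.2, 144, 11.4, 20.4 and 9.31 CPM in fast GMP. Fat4 had 50.1, 1.76 and 638 CPM in slow GMP and 132, 9.54, 0, 0 and 0 CPM in fast GMP, so it ranged between 0 and the highest level seen for it in any library.

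**Figure D4:**
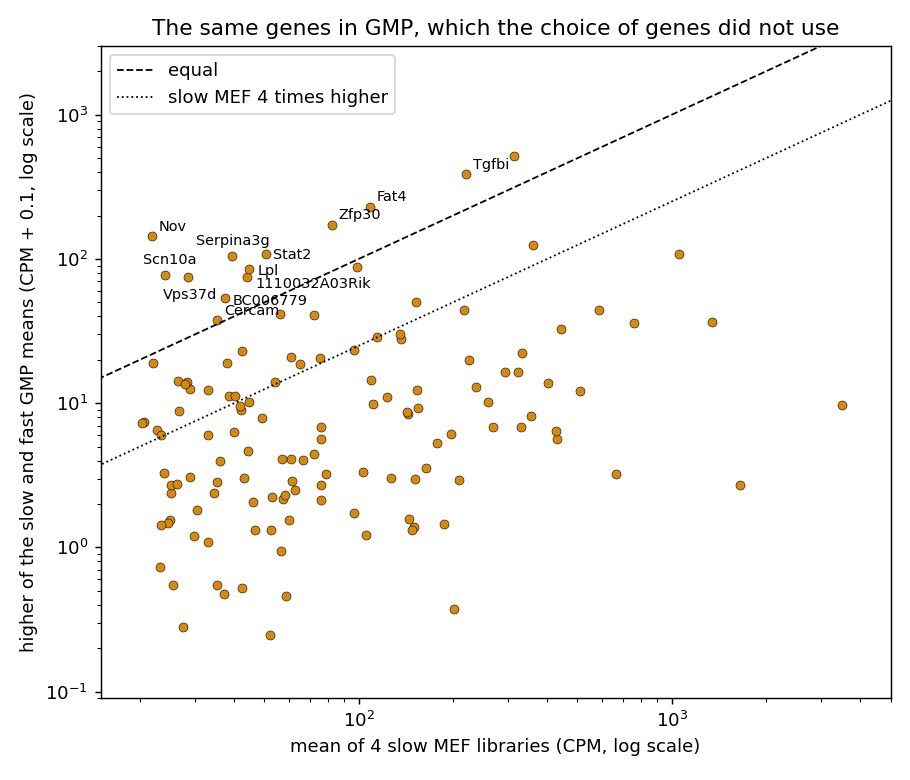
Higher of the slow GMP and fast GMP means (vertical, CPM + 0.1) against the slow MEF mean (horizontal, CPM) for the 133 genes, on log axes. Of the 133, 13 genes lie above the dashed line of equal level, and most of the others lie below the dotted line where slow MEF is 4 times higher.

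Whether the genes also separate slow from fast cycling GMP could be tested, since that comparison took no part in the choice. By edgeR's quasi-likelihood test, 0 of the 58 genes with enough counts passed, and 0 of all 10057 genes tested (0.0% higher and 0.0% lower). At an unadjusted p under 0.05 there were 4 of the 58 and 742 (7.38%) of all genes. DESeq2 called 42 genes and none of the set. Of the 58, 25 were higher and 33 lower in slow GMP, with a median log2 difference of -0.31, beside -0.12 over all genes. Among the 4 were Prox1 and Hmcn1, lower in slow GMP, and Cercam, higher, with log2 differences of -8.11, -5.66 and 3.93 (edgeR adjusted p = 0.662, 0.667 and 0.662).

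The test had little reach in GMP. On simulated counts like those of GMP it found 0 of 100 genes given a 4-fold change and 1 of 100 given a 16-fold one, over 9682 genes. With all 24 libraries in 1 fit, 385 genes passed, 3 of them in the set. These were Cpxm1 and Fbln1, lower in slow GMP (log2 differences -8.34 and -5.23), and Igsf10, higher (4.74). Cpxm1 had counts of 0, 0 and 0 in slow GMP and 47, 21, 9, 0 and 0 in fast GMP. Igsf10 had counts of 14, 0 and 128 in slow GMP and 7, 4, 0, 0 and 0 in fast GMP, most of them in 1 slow GMP library. Fbln1 had 0.300, 0.441 and 0 CPM in slow GMP and 13, 44.8, 0.897, 1.05 and 0.582 CPM in fast GMP.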

How the data were processed

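RNA was sequenced in 24 mouse libraries of 6 groups. CASAVA 1.8.2, TopHat2 2.0.4, HTSeq and the build mm9 are named in the submitters' processing notes. Their roles and settings, the gene annotation and strandedness are not stated in what was available for this work. Counts per gene symbol were deposited by the authors as raw whole numbers, without normalization. Without strand, reads of a gene and an overlapping or antisense partner cannot be told apart, and gene counts do not tell factor transgenes from the cells' own copies.

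CPM were computed from these counts over column sums without Rn45s and Lars2, which collect ribosomal RNA reads. The 133 genes, the role groups and the lists were chosen with earlier results of these data known. Named genes are the 12 highest ratios, up to 4 per list, those passing in GMP, up to 6 by GMP level, up to 4 held by 1 library, those nearest the thresholds, and up to 3 other genes per list by p in slow against bulk MEF. Values of a few such genes, and an agent, were left out of the text. Current names of older symbols were taken from RefSeq.

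Groups were compared with edgeR 4.0.16 in R 4.3.3 (quasi-likelihood F test, robust, TMM, filterByExpr, Benjamini-Hochberg over all genes tested, threshold 0.05, two-sided), with the compared groups alone in each fit. On simulated counts, slow against bulk MEF found 49 of 100 genes given a 4-fold change and 91 of 100 given a 16-fold one over 11208 genes, with 6 false calls among 146. Slow against fast MEF found 35 of 100 and 86 of 100 over 11813 genes, with 5 false among 126. The alternatives were DESeq2 1.42.0, its size factors in edgeR, other filters, a replicate block, all 24 libraries in 1 fit, no Rn45s and Lars2, other thresholds of the rule, and each library left out. In the closest of 37 within-group pairs, chi-square reached 48.7 per degree of freedom, so no pair was merged. Plots used matplotlib 3.10.9.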

Additional observations from a re-analysis of the deposited data

Results flagged for a closer look

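A library was set apart when its gap to the nearest other passed the critical share of the group's range (Dixon's test at 95%). Slow MEF was examined for 130 genes. Fast GMP was examined only for genes named by GMP level and for Prox1, Cercam and Hmcn1. Bulk MEF, fast MEF and iPS were not examined, so the flags are not a full list. Chance sets apart about 1 in 20 groups if the values are normally distributed, which was not checked for CPM. Of the 130 genes examined, 41 had such a library in slow MEF, 40 of them high and 1 low. The rule for the genes asked for a high slow MEF mean, which a single high library can give. Slow MEF replicate 1 stood above the others for Serpina6 (91.1 CPM), Islr (115 CPM), Tnfrsf11a (2002 CPM), Ppp1r26 (126 CPM), Cetn2 (419.8 CPM), Pptc7 (591 CPM), Prox1 (389.8 CPM), Matn2 (128 CPM), Exph5 (81.1 CPM), Il13ra1 (54.6 CPM), 5031426D15Rik (88 CPM), Vps37d (107 CPM), Nsg1 (90.2 CPM) and Dera (821 CPM). Slow MEF replicate 2 stood above the others for Cyp26b1 (6029 CPM), Sp3 (1487 CPM), E130203B14Rik (75.1 CPM), Gpr123 (84 CPM), Kcnip3 (128 CPM), Ednrb (70.7 CPM) and Zfp30 (293 CPM). Slow MEF replicate 3 stood above the others for Bcdin3d (5367 CPM), Slc36a1 (1369 CPM), Nsmce2 (441 CPM), Scn10a (82.7 CPM) and Cercam (107 CPM). Slow MEF replicate 4 stood above the others for Kcnn2 (1172 CPM), Gm16861 (733 CPM), Plg (264 CPM), Disc1 (96.2 CPM), Rai2 (97.6 CPM), Htr7 (99.1 CPM), Apod (78.3 CPM), Hmcn1 (77.3 CPM), Zfp184 (184 CPM), Clu (1005 CPM), Rnf112 (92.6 CPM), Unc5c (69.9 CPM), 2010001M06Rik (246 CPM) and A4galt (471 CPM). Ptn was low in slow MEF replicate 1, at 3004 CPM. In fast GMP the library set apart was high for Vps37d in replicate 4 (359 CPM), Scn10a in replicate 1 (64 CPM), Tgfbi in replicate 5 (399 CPM), Prox1 in replicate 3 (357 CPM) and Hmcn1 in replicate 4 (75.9 CPM). Fbln1 averaged 0.247 CPM in slow GMP, below all 5 fast GMP libraries (0.582 to 44.8 CPM), while every slow MEF library was above every fast MEF library. The choice of genes fixed the MEF direction. The GMP values rest on counts of 1, 1 and 0 in slow GMP and 29, 94, 3, 3 and 1 in fast GMP, most of them at or under 3, too few for the test of the 2 GMP groups alone, and the difference between the cell types was not tested.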

How the results depend on the processing

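The 133 genes became 213 at a fold of 3 and 81 at a fold of 6, 132 to 160 with 1 library left out, 114 with TMM library sizes, 128 with Rn45s and Lars2 counted, 129 with an offset of 1 CPM, 122 with medians, 196 at a level of 10 CPM and 94 at 40 CPM. Genes with no overlap (main 88) numbered 85 with TMM library sizes and 86 with Rn45s and Lars2 counted. With 1 library left out they numbered 88 to 94, but with the genes held fixed that step could not lower the count. Slow against fast GMP called 42 genes by DESeq2 and, with all 24 libraries in 1 fit, 385, 3 of them in the set, and 0 with each library left out. Slow against bulk MEF called 2437 genes by DESeq2, 56 in the fit of all 24 libraries, and 759 to 998 with 1 library left out (main 1181), with 759 without slow MEF replicate 3 and 762 without bulk MEF replicate 4. Slow against fast MEF called 1246 with all 24 libraries in 1 fit and 3055 to 3863 with 1 library left out (main 3726). The cause of these shifts was not tested. Same-numbered replicates did not deviate together (correlations of -0.06 to 0.06), so the numbers were not taken to pair libraries; with the replicate number as a block, slow against bulk MEF called 870 genes, slow against fast MEF 3344 and slow against fast GMP 0. The log2 difference of Cercam in GMP was -0.17 to 4.52 with 1 library left out, the lowest without slow GMP replicate 1 (edgeR adjusted p = 0.997). C1s against fast MEF, near 0 throughout, was above 0 with no filter (0.0072) and at 5 CPM (0.021), and -0.20 to 0.20 with 1 library left out. GMP libraries were shallow and varied most, so a missed call there says little.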
